A study of Rattus norvegicus with 4 samples.

Results

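Integrins and the proteins that anchor them to actin at focal adhesions were followed in HSC-T6, an immortalised line of rat hepatic stellate cells, without treatment and after ginsenoside Rk1, a saponin of processed ginseng. The gene set comprised every row of the count table with an integrin alpha or integrin beta symbol and 16 named cytoplasmic adhesion genes, which gave 41 of 32883 annotated genes, 25 integrins and 16 cytoplasmic genes. There were 4 libraries of total RNA, 2 per group. Untreated cells are given as having no treatment, and the treated cells are given only as GRK1, read here as ginsenoside Rk1 from the series title. No label used here states a dose, a duration, a vehicle or whether libraries came from separate cultures, and p-values therefore reflect the spread between libraries alone, which may be technical. The series title concerns glycolysis and ferroptosis in stellate cells under Rk1, and the single comparison of the design is Rk1 against untreated.

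Integrins are pairs of 1 alpha and 1 beta subunit that span the plasma membrane and bind collagen, laminin or fibronectin outside the cell. Inside, talin and kindlin bind the beta tail and switch the receptor on, vinculin, parvin and tensin carry the load to actin, and the kinases FAK and Src with the scaffolds paxillin and p130Cas pass the signal on. In the liver, stellate cells use these contacts to grip the collagen they deposit, and integrins that contain the alpha v subunit can release active TGF-beta from its latent complex.

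Library totals ranged from 18008586 to 20430930 counts, and 3 counts corresponded to 0.148 to 0.167 CPM (counts scaled to a common library total). Of the 14 stellate and fibroblast markers, 11 were abundant enough to test, Lrat and Reln had 0 counts in all 4 libraries, and Acta2 was at 3.60 CPM or less. The summed level of that list was 19730.4 to 20898 CPM untreated and 13361 to 13463 CPM with Rk1. Most of it was the matrix genes Col1a1 (12050 then 8017 CPM, group means), Col3a1 (4845 then 2627) and Lox (2063 then 1516). These were among the 7 of 11 tested members that fell, against 10.5% of all tested genes. The rest of these 7 were scarcer but fell further: Tagln (log2 fold change -2.84), Acta2 (-2.44), Gfap (-1.88) and Lum (-1.37). Vim (-0.08), Pdgfrb (-0.31), Des (0.37) and Ngfr (0.32) did not pass (log2 fold changes). Hepatocyte markers were at or near 0 apart from Tf, as were endothelial markers (summed 0.668 to 0.988 CPM over all libraries), and the leukocyte markers Ptprc and Adgre1 had 0 counts. The leukocyte list summed to 44.1 to 47.0 CPM untreated and 55.6 to 56.6 CPM with Rk1, nearly all of it Cd14, which rose. The epithelial list summed to 7.54 to 9.45 CPM untreated and 2.80 to 2.95 CPM with Rk1, mostly Sox9, which fell. The part of these marker shifts in the results given here was not tested. In bulk RNA, fewer cells that express a gene and less RNA of that gene per cell cannot be told apart.

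Adhesion genes as a set, and the integrins among them, passed the test about as often as other genes, with calls in both directions. Of the 41 genes, 34 were abundant enough to test, 4 rose (Itga3, Parva, Parvb and Itgb1) and 3 fell (Itga11, Itga1 and Tns3) in edgeR's quasi-likelihood test at a Benjamini-Hochberg adjusted p under 0.05. That is 20.6% of those tested, against 22.0% of all 12316 tested genes (11.5% higher and 10.5% lower). Of the 18 tested integrins, 2 rose and 2 fell (22.2% called), and of the 16 cytoplasmic genes, 2 rose and 1 fell (18.8%). The median log2 fold change was 0.03 for the set and 0.0011 for all tested genes, and values ran from -0.63 to 0.87. The groups did not overlap for 21 of the 34 genes, and for 63.0% of all tested genes. Itga3, Itga11, Itga1 and Parva were called in all 12 other settings of tool, scaling, filter, model or left-out library, whereas Itgb1, Parvb and Tns3 each lost the call in 3 or 4 of them. The plot of the 7 called genes by library shows how far the groups lie apart.

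**Figure D1:**
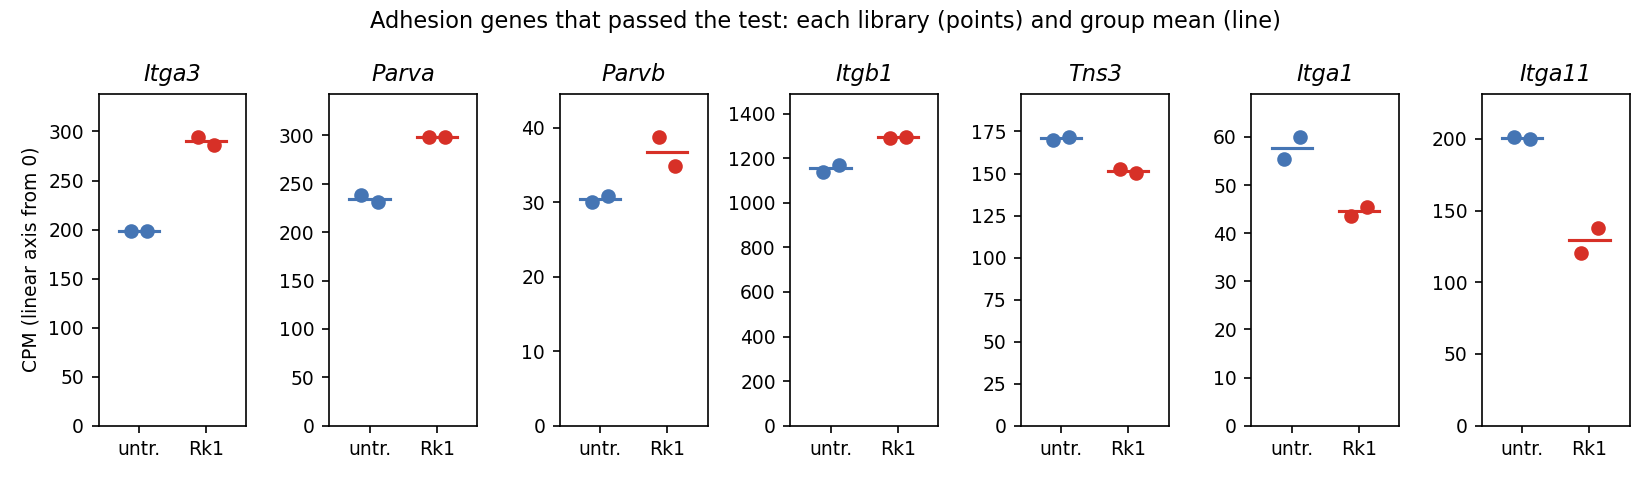
CPM in each library (points) and group mean (line) for the 7 adhesion genes that passed the test, on linear axes that start at 0. Both Rk1 libraries lie above both untreated libraries for Itga3, Parva, Parvb and Itgb1 and below them for Tns3, Itga1 and Itga11. The Rk1 libraries of Itga11 stand at 121 and 138 CPM.

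Among the alpha subunits, the collagen receptors Itga11 and Itga1 fell and the laminin receptor Itga3 rose. The other tested collagen and laminin receptors did not pass. Of these, Itga10 (0.47) and Itga6 (-0.12) leaned against the called genes of their class, and Itga7 (0.13) leaned with Itga3. Itga11 encodes the alpha 11 subunit, a receptor for fibrillar collagen typical of fibroblasts. Its level was 201 and 199.9 CPM untreated and 121 and 138 CPM with Rk1. Both treated libraries were lower than both untreated ones, a 1.55-fold fall (log2 fold change -0.63 ± 0.07 SE, adjusted p = 8.2e-04). Itga1, the alpha 1 subunit, binds collagen IV and fibrillar collagen. It went from 55.5 and 60.0 CPM to 43.6 and 45.5 CPM (-0.37 ± 0.06, adjusted p = 0.0047), a 1.30-fold fall without overlap. Pelo lies within Itga1 on the same strand, and at 62.9 to 66.9 CPM it did not pass. Itga3, the alpha 3 subunit, binds laminins that contain the alpha 5 chain. It was at 199 and 198 CPM untreated and at 295 and 286 CPM with Rk1, a 1.46-fold rise (0.55 ± 0.04, adjusted p = 2.2e-04). The untreated libraries were nearly equal in Itga3 and Itga11, while the Rk1 libraries of Itga11 lay further apart (121 and 138 CPM). Both changes exceeded the difference within either pair, though 2 libraries per group measure that spread poorly.

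In Rnor_6.0, Itga11 (ENSRNOG00000006723) spans bases 67615635 to 67683973 of chromosome 8, plus strand, and Itga1 (ENSRNOG00000053550) bases 47127219 to 47281421 of chromosome 2, minus strand. Itga3 (ENSRNOG00000004276) spans bases 82855613 to 82887497 of chromosome 10, minus strand. Itgb1 (ENSRNOG00000010966) spans bases 61677542 to 61725535 of chromosome 19, plus strand. Values are sums over the exons of each gene and do not separate transcripts.

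Other alpha subunits did not pass. Itgav, the alpha v subunit of receptors for vitronectin and latent TGF-beta, was at 185 and 162 CPM untreated and at 201 and 195 CPM with Rk1 (0.19 ± 0.07, adjusted p = 0.083, 95% interval 0.03 to 0.34). It was called in 3 other settings, at 0.28 (adjusted p = 0.012) without untreated replicate 1. Itga5, the fibronectin receptor subunit, was at 223 and 214 CPM and at 238 and 245 CPM (0.14 ± 0.04, adjusted p = 0.058), and was called in 2 other settings. For both genes the Rk1 libraries were the higher ones without overlap, but the adjusted p missed the threshold. Itga6, another laminin receptor subunit, had 29.3 and 31.6 CPM untreated and 27.8 and 28.4 CPM with Rk1 (interval -0.28 to 0.04). Itga10, a collagen receptor of cartilage, was scarce at 4.04 and 4.40 CPM and then 6.12 and 5.60 CPM (0.47 ± 0.15, adjusted p = 0.068). Its call with the stricter filter (adjusted p = 0.041) is no support for a change, since it reached that filter's 5 CPM in the Rk1 libraries alone. Itga7, Itga2b and Itgae stayed between 3.90 and 5.98 CPM in all libraries, with intervals that span 0. Several other genes overlap Itgae, Camkk1 and Ncbp3 on its own strand among them, so its counts are uncertain.

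Leukocyte integrins were close to the floor, as were subunits of other classes, the collagen receptor subunit Itga2, Itga8 and Itga9. Itgb2, the beta subunit that leukocyte integrins share, had 1, 0, 0 and 1 counts in the libraries untreated 1, untreated 2, Rk1 1 and Rk1 2. Itgam and Itgb7 had at most 5 counts in any library, Itga4 had at most 2, and Itga2, Itga8 and Itga9 had at most 7, 1 and 2. These 7 genes were too scarce to test, and a difference in them was not detectable at this depth. Itgal (0.549 to 0.825 CPM) and Itgax (0.440 to 1.17 CPM) were tested and did not pass. Itgax had the highest log2 fold change of the set, 0.87, with an interval from -0.24 to 1.97 on 8 to 21 counts per library.

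Per length of exon, 6 alpha subunits made up nearly all of the alpha level, and their proportions differed between the groups. Dividing CPM by the annotated exon length in kilobases allows genes to be set side by side, though only roughly, since the lengths of the expressed transcripts are not known. In untreated cells Itgav stood at 55.3, Itga5 at 49.8, Itga11 at 43.5, Itga3 at 40.5, Itga1 at 13.8 and Itga6 at 5.11 CPM per kb (means, n = 2). With Rk1 the order was Itgav at 62.9, Itga3 at 59.2, Itga5 at 55.0, Itga11 at 28.0, Itga1 at 10.7 and Itga6 at 4.71 CPM per kb. On this scale Itga11 was close to Itga3 in untreated cells, too close for annotated lengths to order them, and below it with Rk1. The per-length ratio of Itga11 to Itga3 was 1.08 and 1.07 untreated against 0.435 and 0.513 with Rk1.

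**Figure D2:**
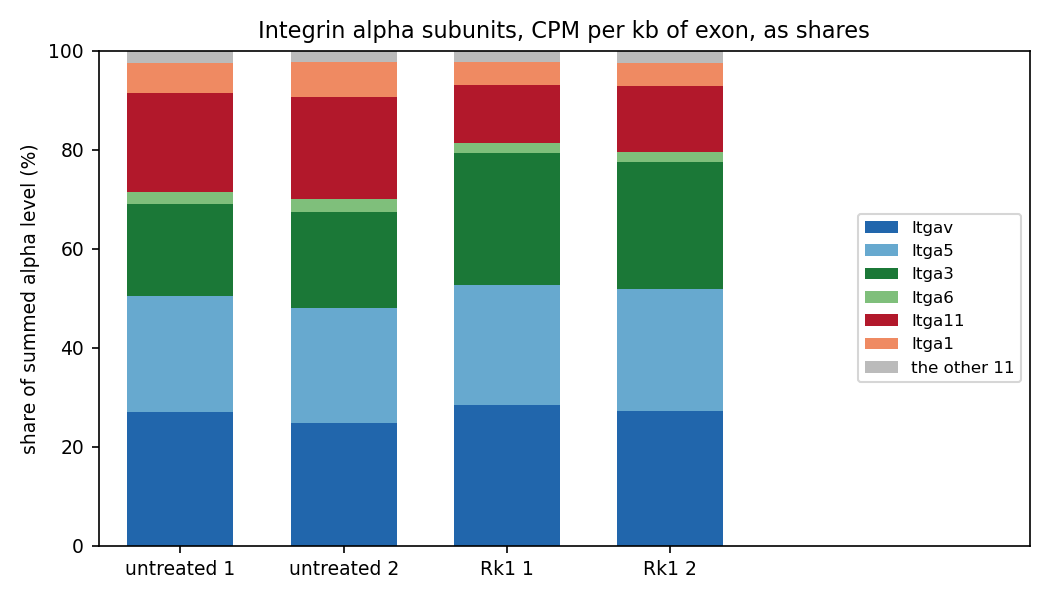
Share (%) of each integrin alpha subunit in the summed alpha level (CPM per kb of exon) of each library, with the 11 scarce subunits pooled. Itga11 takes 20.1% and 20.7% of the untreated bars and 11.6% and 13.2% of the Rk1 bars, and Itga3 takes 18.6% and 19.4%, then 26.7% and 25.7%.

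Grouped by their textbook ligands, a grouping made after the values were seen, the 4 collagen-binding subunits (Itga1, Itga2, Itga10 and Itga11) summed to 57.8 and 58.6 CPM per kb untreated and to 37.8 and 42.0 with Rk1. The 3 laminin-binding subunits (Itga3, Itga6 and Itga7) summed to 46.5 and 46.6 untreated and to 65.7 and 64.2 with Rk1. Itga3 alone gave 40.5 and 40.4 of this untreated and 60.0 and 58.3 with Rk1, so the rise of the class was that of Itga3. The 4 subunits that recognise the RGD peptide (Itgav, Itga5, Itga8 and Itga2b) summed to 111 and 102 untreated and to 119.6 and 119 with Rk1. The sum over all 17 alpha subunits was 217 and 209 CPM per kb untreated and 225 and 227 with Rk1. As shares, the collagen-binding subunits went from 26.6% and 28.1% of the alpha level to 16.8% and 18.5%, and the laminin-binding ones from 21.4% and 22.3% to 29.3% and 28.3%. These sums and shares are descriptions with no test of their own, since the smallest two-sided p that an exact permutation test of 2 libraries against 2 can give is 0.333.

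Beta subunits were dominated by Itgb1 in both groups. Itgb1, the partner of most alpha subunits found here, was at 1140 and 1169 CPM untreated and at 1292 and 1296 CPM with Rk1. Every Rk1 library was higher, but the change was small, a 1.12-fold rise (0.16 ± 0.04, adjusted p = 0.017). The call was lost without untreated replicate 1 (adjusted p = 0.13), without untreated replicate 2 (adjusted p = 0.088) and without Rk1 replicate 2 (adjusted p = 0.051). Per length it made up 82.9% to 84.4% of the summed beta level in the 4 libraries, and Itgb5 14.3% to 15.5%. Itgb5, which pairs with alpha v, missed the threshold, with 227 and 216 CPM before and 234 and 233 CPM after Rk1 (0.08 ± 0.04, adjusted p = 0.26). The table lists it as a processed transcript rather than as a protein-coding gene. Itgb3, the other classical partner of alpha v, was far lower at 7.35 to 8.82 CPM (-0.04 ± 0.14). Itgb8 (2.31 to 3.50 CPM), Itgb4 (4.63 to 5.29 CPM) and Itgb6 (0.440 to 0.768 CPM) did not pass either, and Galk1, which overlaps Itgb4 on the other strand, had far more reads than Itgb4.

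The promoters of the 4 called integrin genes are shown: Itga11, Itga1 and Itga3 carry the change in alpha subunit make-up, and Itgb1 is their common partner. They were matched by symbol to RefSeq promoter windows on GRCr8, as were 30 of the 41 genes, and each is given as the 250 bases before the start, 5′ to 3′ in the direction of the gene. Capitals mark the core GGAATG, which TEAD factors, the DNA partners of YAP, bind, found on either strand. Itga11 is at chr8:72041182-72041431 (plus strand), Itga1 at chr2:48545284-48545533 (minus strand), Itga3 at chr10:80518902-80519151 (minus strand) and Itgb1 at chr19:73602027-73602276 (plus strand).
Itga11: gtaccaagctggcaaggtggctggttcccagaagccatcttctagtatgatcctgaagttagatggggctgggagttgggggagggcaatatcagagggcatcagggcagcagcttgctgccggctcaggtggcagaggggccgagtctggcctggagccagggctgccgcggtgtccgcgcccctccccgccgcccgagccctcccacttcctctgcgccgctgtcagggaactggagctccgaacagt
Itga1: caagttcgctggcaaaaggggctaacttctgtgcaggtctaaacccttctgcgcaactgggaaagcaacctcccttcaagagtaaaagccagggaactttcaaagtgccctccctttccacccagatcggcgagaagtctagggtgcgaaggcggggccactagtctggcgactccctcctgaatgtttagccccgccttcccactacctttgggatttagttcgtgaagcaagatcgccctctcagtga
Itga3: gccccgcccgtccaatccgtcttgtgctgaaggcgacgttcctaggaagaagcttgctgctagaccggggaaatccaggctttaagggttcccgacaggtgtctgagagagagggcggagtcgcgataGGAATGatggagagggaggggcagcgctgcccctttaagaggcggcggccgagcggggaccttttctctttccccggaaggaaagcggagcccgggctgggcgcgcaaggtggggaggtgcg
Itgb1: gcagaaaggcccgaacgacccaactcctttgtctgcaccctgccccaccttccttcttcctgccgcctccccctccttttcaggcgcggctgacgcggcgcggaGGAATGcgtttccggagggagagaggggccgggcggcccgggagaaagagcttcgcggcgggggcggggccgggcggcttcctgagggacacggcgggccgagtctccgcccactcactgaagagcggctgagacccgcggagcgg

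The core GGAATG occurred in the windows of Itga3 (122 to 117 bases before the start) and Itgb1 (146 to 141 bases before the start), and not in those of Itga11 and Itga1. It was also absent from the windows of the other called genes that were matched, Parvb, which rose, and Tns3, which fell. Parva, which rose, had no matched window. Over all 33469 promoter windows of the same length, 12.1% held it, and 6 of the 34 windows of the adhesion genes did, the other four being in Vcl, Zyx, Itga10 and Itgb8. The CArG box, the site of serum response factor, which drives many actin and adhesion genes, was in the window of Itgb6 only, against 1.5% of all windows. No window of an adhesion gene held both motifs in full. The Vcl window, which holds GGAATG, opens with cttataagg, a CArG box without its first base. The base before it lies outside the window, so whether a full box lies there was not read. A match describes letters in this window and not binding.

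Among the proteins that link integrins to actin, none of the 4 talin, vinculin and kindlin genes passed. With 22.0% of all tested genes called, that count does not set so few genes apart. Tln1, the main talin, was at 416 and 398 CPM untreated and at 427 and 414 CPM with Rk1 (0.05 ± 0.04, 95% interval -0.05 to 0.15), with overlapping groups. Creb3 overlaps Tln1 on the other strand. Vcl, vinculin, was at 341 and 303 CPM and at 322 and 291 CPM (-0.07 ± 0.07, interval -0.24 to 0.09), and its replicates differed by more than its group means did. Fermt2, kindlin-2, was at 206 and 198 CPM and at 211 and 197 CPM (0.01 ± 0.05, interval -0.10 to 0.13). Tln2, the second talin, was slightly higher in both Rk1 libraries (69.5 and 70.0 against 64.1 and 64.0 CPM) but did not pass (0.12 ± 0.05, adjusted p = 0.097).

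Within the complex of integrin-linked kinase, PINCH and parvin, which joins the beta tail to actin, both parvins rose and the other members did not pass. That is 2 of 4 genes (50%) against 22.0% of all tested genes, a share that rests on few genes. Parva, alpha-parvin, the actin-binding arm of the complex, was at 238 and 231 CPM untreated and at 298.5 and 298.1 CPM with Rk1, a 1.27-fold rise (0.35 ± 0.04, adjusted p = 0.0015). Parvb, beta-parvin, went from 30.1 and 30.8 CPM to 38.8 and 34.8 CPM (0.27 ± 0.07, adjusted p = 0.032). The Parvb call was lost by DESeq2 (adjusted p = 0.16), without Rk1 replicate 1 (0.19, adjusted p = 0.12) and without either untreated library (adjusted p = 0.12 and 0.10). Ilk, the kinase-like hub to which parvins bind, was at 189 and 183 CPM and at 194 and 177 CPM (-0.0042 ± 0.05, interval -0.13 to 0.12). Lims1, which encodes PINCH-1, was at 63.7 and 66.7 CPM and at 61.2 and 56.2 CPM (-0.15 ± 0.06, adjusted p = 0.11). Parva (ENSRNOG00000015713) lies on chromosome 1 at 177249226 to 177408205, plus strand, and Parvb (ENSRNOG00000055305) on chromosome 7 at 125189827 to 125277689, plus strand.

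None of the 3 signalling genes passed. With 22.0% of all tested genes called, that count does not set so few genes apart. Ptk2, which encodes FAK, was at 192 and 189 CPM untreated and at 193 and 195 CPM with Rk1 (0.02 ± 0.04, interval -0.08 to 0.12). Pxn, paxillin, was at 118 and 110 CPM and at 116 and 114 CPM (0.01 ± 0.05, interval -0.10 to 0.13). Bcar1, p130Cas, was at 142 and 139 CPM and at 152 and 135 CPM (0.03 ± 0.06, interval -0.12 to 0.18). The intervals limit any change in these transcripts to well under that of Itga3 or Itga11, and they say nothing of protein or phosphorylation.

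On the actin side, 1 of 5 genes was called, and it fell (20% called, against 22.0% of all tested genes). Tns3, a tensin that binds beta tails and actin, was at 170 and 172 CPM untreated and at 153 and 150.3 CPM with Rk1. The groups did not overlap, but the fall was small (1.13-fold, -0.18 ± 0.04, adjusted p = 0.024), and leaving out any 1 library ended the call (adjusted p = 0.067 to 0.085). Vasp, which extends actin filaments, was at 153 and 157 CPM and at 146 and 137 CPM (-0.13 ± 0.05, adjusted p = 0.10). Zyx, zyxin, a tension-sensitive LIM protein, was at 84.4 and 79.5 CPM and at 81.9 and 77.5 CPM (-0.04 ± 0.05). Its relative Lpp, at 42.6 to 47.0 CPM, and Tns1, at 108 to 117 CPM, did not pass. LOC100365839 overlaps Lpp on the other strand and had more reads (highest count 1739 against 865). Tns3 (ENSRNOG00000025695) lies on chromosome 14 at 88673881 to 88886198, minus strand.

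**Figure D3:**
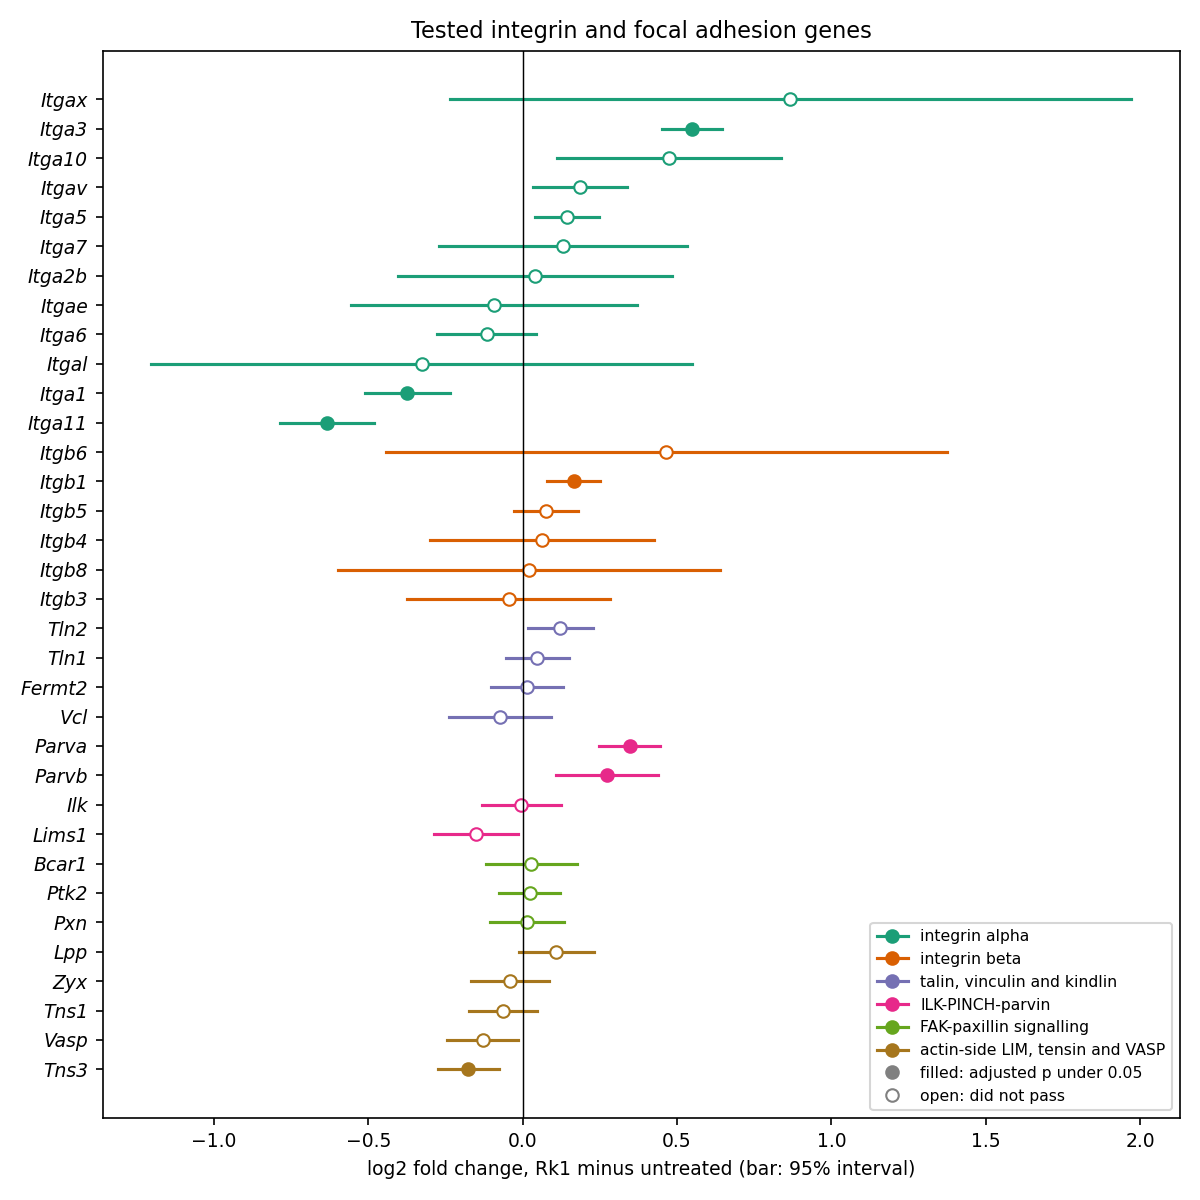
Log2 fold change of Rk1 against untreated with its 95% interval, not adjusted for the number of genes, for the 34 tested adhesion genes, coloured by role and filled where the adjusted p was under 0.05. Itga3 (0.55) and Itga11 (-0.63) lie furthest from 0 among the filled points, the talin, vinculin, kindlin and signalling genes lie near 0, and the widest bars belong to scarce integrins such as Itgax, Itgb6 and Itgal.

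Of the 27 tested genes that did not pass, 16 had a 95% interval that lay wholly between 20% lower and 25% higher, all 13 uncalled cytoplasmic genes among them. For the others, chiefly scarce integrins, the data do not bound the change as closely.

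Genes around the set were read out from 4 lists. All were written with earlier results of these data known. A share above that of all tested genes is therefore a description and not independent evidence. Among 66 tested genes of other adhesion components, 6 rose and 9 fell, 22.7% against the 22.0% of all tested genes, with a median of 0.04. Tgfb1i1, which encodes the paxillin relative Hic-5, fell from 43.0 and 44.1 CPM to 26.3 and 28.5 CPM (-0.67 ± 0.06, adjusted p = 5.7e-04). Trip6, a zyxin relative, fell by 0.42 ± 0.06. Elmo1, which works with Dock1 downstream of p130Cas to activate Rac, rose from 29.0 and 27.5 CPM to 45.5 and 41.9 CPM (0.63 ± 0.07, adjusted p = 8.9e-04), and Sh3kbp1, an endocytic adaptor, rose by 0.34 ± 0.04. Their relatives Pxn and Zyx did not pass, and the differences between relatives were not tested.

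Among 29 tested genes of integrin activity and traffic, 8 rose and 3 fell (37.9% against 22.0% of all tested genes), with a median of 0.11. Eps8, an actin-capping adaptor (0.39 ± 0.05), Arf6, a GTPase of integrin recycling (0.36 ± 0.05), and Commd3, of endosomal sorting (0.38 ± 0.06), rose, as did Vps35, a retromer subunit (0.21 ± 0.04). Nf2 rose too (0.25 ± 0.04), with a smaller adjusted p than Vps35. The remaining risers were Rapgef1 (0.23 ± 0.07), Gipc1 (0.15 ± 0.04) and Rap1b (0.14 ± 0.04). The 3 that fell were Kif15 (-0.34 ± 0.06), a kinesin of the mitotic spindle that also acts in endocytic traffic, Raph1 (-0.35 ± 0.07), which encodes lamellipodin, and Dab2 (-0.17 ± 0.04), an endocytic adaptor of integrins. Genes named here beyond Eps8, Arf6, Commd3 and Kif15 were chosen with their values known. Only 5 of the list rose by DESeq2, without the filter, without either untreated library and without Rk1 replicate 1.

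Among 21 tested membrane partners of integrins, 7 rose and 2 fell (42.9% against 22.0% of all tested genes), with a median of 0.15. Cd9, a tetraspanin that associates with integrins, rose from 63.9 and 56.8 CPM to 90.7 and 90.6 CPM (0.58 ± 0.06, adjusted p = 8.8e-04). Adam15 (0.38 ± 0.05) and Bsg (0.27 ± 0.04), which encodes basigin, rose too. The 2 that fell were Sdc1, a syndecan (-0.30 ± 0.04), and Cav1, caveolin-1 (-0.27 ± 0.04, singled out after its value was seen). Without untreated replicate 1 only 4 rose, and without untreated replicate 2 only 3.

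Among 42 tested integrin ligands, 23 fell and 5 rose (66.7% against 22.0%) with a median of -0.33. This list shares genes with matrix lists already known to fall in these libraries, so it is no independent evidence of direction. Tnc, tenascin C, went from 555 and 519 CPM to 273 and 261 CPM (-1.01 ± 0.05). Col3a1 (-0.88 ± 0.03), Ccn2 (-2.74 ± 0.13) and Ccn1 (-1.67 ± 0.09), a fibrillar collagen and a pair of matricellular proteins, were the others with the smallest adjusted p. The 5 that rose, named because they are few, were Lama5 (0.36 ± 0.05), Lamb2 (0.26 ± 0.04), Ecm1 (0.47 ± 0.07), Mfge8 (0.17 ± 0.04) and Tgfb1 (0.46 ± 0.05). The plot of changes by list sets these against the adhesion genes.

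**Figure D4:**
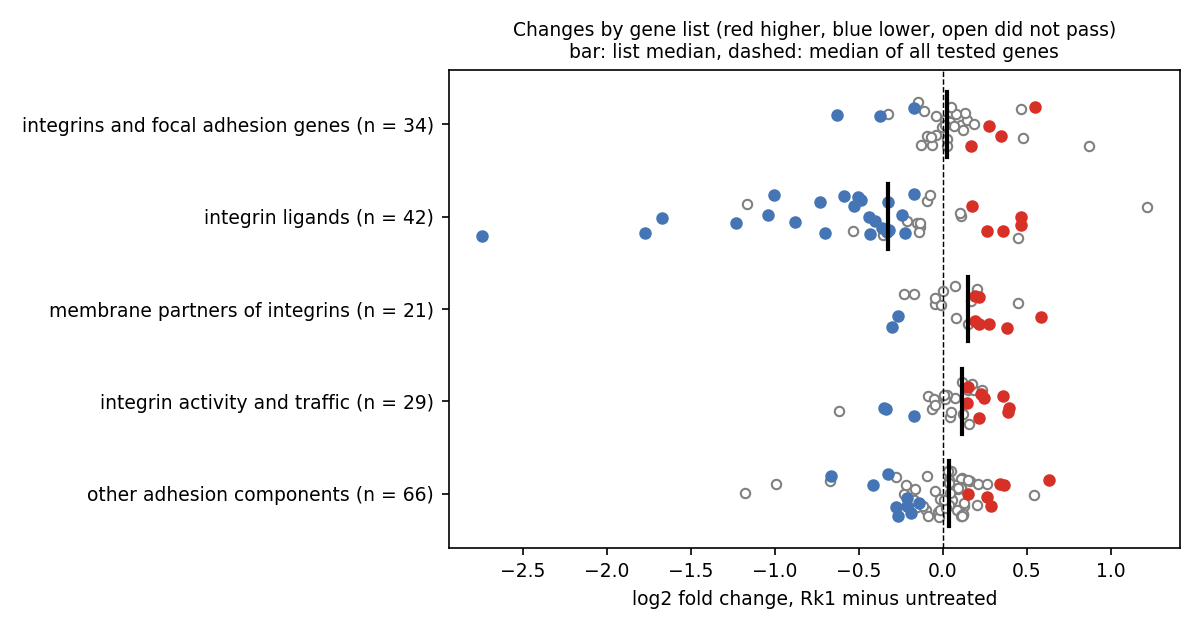
Log2 fold change of each tested gene (points, jittered vertically) in the 34 adhesion genes and in 4 lists around them, red where higher and blue where lower at an adjusted p under 0.05, with list medians as bars. The ligand list lies mostly below 0 (median -0.33), while the medians of the other lists lie between 0.03 and 0.15.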

How the data were processed

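RNA of 2 untreated and 2 Rk1 libraries of HSC-T6 cells was measured by RNA sequencing. The authors deposited raw counts per Ensembl gene with exon lengths and Rnor_6.0 positions, per the file headers. HISAT2 and HTSeq are named in the submitters' processing notes, and the sources used here give no version, strand setting or handling of overlapping genes. Groups follow the labelled treatment. From the counts, edgeR 4.0.16 (R 4.3.3) kept 12316 of 32883 genes (filterByExpr, minimum count 10, minimum total 15), scaled by TMM and ran the two-sided quasi-likelihood F-test over all of them with group as the only term, Benjamini-Hochberg adjustment and a threshold of 0.05. SE is the log2 fold change divided by the square root of F, and 95% intervals use the t quantile of the total degrees of freedom. CPM use scaled totals, and CPM per kb divides them by exon length. No library was a copy of its replicate: chi-square over degrees of freedom was 4.47 for the untreated pair and 4.52 for the Rk1 pair. On simulated data, with changes planted only in well-counted genes, most genes with the largest planted change were recovered. No recovery rate is given here for changes as small as those of the called adhesion genes. Unchanged genes took more of the calls than the threshold allows, so calls near the threshold are less certain. DESeq2 1.42.0 and limma-voom 3.58.1, other scalings and filters, robust dispersions, a replicate block, a fold threshold and each library left out were alternatives. The genes and lists were chosen with earlier results of these data known. Every called adhesion gene is named with its value in each library, other tested ones by role, and up to 4 genes per list by smallest adjusted p. List symbols without a row in the table were not analysed here.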

Additional observations from a re-analysis of the deposited data

How the results depend on the processing

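With 2 libraries per group, calls near the threshold rest on single libraries. The 4 genes called in all 12 settings kept their direction, as did the 3 others, and none of the 404 values of adhesion genes recomputed under these settings turned a called direction, while 12 genes that did not pass changed sign. Of the 27 genes that did not pass, Itga5 and Itgav passed in at least 1 setting, and Itga10 only with the stricter filter, which it met through the Rk1 libraries alone. All 16 genes named from the lists by adjusted p were called in all 12 settings. They were picked for the smallest adjusted p in the same libraries, so this says little of how stable the lists are. Where a call also needed a 1.5-fold change, 0 adhesion genes were higher and 1 lower (Itga11), which is 0 and 1 integrins and 0 cytoplasmic genes. The lists then held 1 higher and 1 lower gene (other components), 0 and 0 (activity and traffic, and membrane partners), and 0 and 10 (ligands, with 0 laminin chains), and 247 and 334 of all genes remained. DESeq2 called 1 cytoplasmic adhesion gene and 5 activity and traffic genes higher, and 859 higher and 853 lower of all genes, and without a filter 5 activity and traffic genes were higher. Robust dispersions called 4 integrins higher. Laminin chains lower numbered 2 with robust dispersions, limma-voom, the stricter filter and the replicate block. With each library left out in turn, 2 to 3 adhesion genes were higher (1 to 2 integrins, 1 to 2 cytoplasmic) and 0 cytoplasmic ones lower. In the same fits other components lower numbered 5 to 9, activity and traffic higher 5 to 7, membrane partners higher 3 to 6, and all genes higher 853 to 1160, a lone library being assumed to vary like the other group. The causes were not tested beyond the smaller number of libraries. Replicate numbers are shared between groups in the labels, but nothing says that they pair libraries, and same-numbered libraries deviated together only weakly (correlation 0.059). With the replicate block 5 adhesion genes were higher and 3 lower, and 1676 and 1538 of all genes.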

Other observations

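Ligand chains of the receptors that changed were also read by class, a split made after the values were seen. Of 7 tested collagen chains, 6 fell and 0 rose (85.7% against 22.0% of all tested genes, 10.5% lower), with a median log2 fold change of -0.59. Col6a1 fell by 1.04 and Col18a1 by 0.70, and Col5a1, at -0.16, did not pass (adjusted p = 0.051). Of 8 tested laminin chains, Lama5 and Lamb2 rose, Lama4 fell (-0.32) and 5 did not pass (37.5% called against the same 22.0%). Lama5 went from 256 to 329 CPM and Lamb2 from 332 to 398 CPM (group means), while Lamc1, the gamma chain that joins them, missed the threshold (group means 374 and 403 CPM, 0.11, adjusted p = 0.24). Whether these ligand changes bear on those of Itga11, Itga1 and Itga3 was not tested.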
